A study of Mus musculus with 61 samples.

Results

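The brain expression profiles of 129S6/SvEvTac and A/J mice were set against those of C57BL/6J and FVB/NJ mice on Affymetrix mouse genome 430 2.0 arrays. The comparison uses 40 of the 61 arrays of the series, 20 on each side, chosen by the strain given in the sample titles. Each of the 4 strains has 10 arrays, 2 from each of 5 regions. These are the pituitary gland, the hypothalamus, the hippocampus, the periaqueductal gray (pag) and the bed nucleus of the stria terminalis (bnst). All mice were untreated wild type males dissected at 8 weeks of age after a period of single housing, and replicates came from separate animals. An array holds RNA of 5 mice for the pituitary gland, of 2 or 3 mice for the bnst, of 1 or 2 mice for the hypothalamus and the pag, and of 1 mouse for the hippocampus. 129S6/SvEvTac came from Taconic and the other strains from the Jackson Laboratory, so strain and supplier cannot be told apart for 129S6/SvEvTac. No behavioural measure of the strains was analysed here.

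An inbred strain is a line of near-identical animals. A stable difference between the arrays of different strains can go with the genotype, or with the supplier where it differs. It can also go with other conditions that follow the strain, such as the dissection or its hour. Which of these a difference goes with was not tested. The regions belong to circuits of stress, defence and memory. The bnst links the amygdala to the hypothalamus, the hypothalamus releases the peptides that drive the pituitary gland, the pag organizes defensive responses and the hippocampus serves memory. On these arrays a gene is read by 1 or more probe sets, each a group of short oligonucleotides designed from a reference transcript, and a sequence difference under an oligonucleotide changes the reading of a strain as a change in RNA would. The probe sequences were not used here, so these cases cannot be told apart for any gene below. In tissue RNA, fewer cells of a type and less RNA per cell cannot be told apart either.

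A positive difference below means a higher signal in 129S6/SvEvTac and A/J. It is the mean of those strains minus the mean of C57BL/6J and FVB/NJ, on log2 of the signal with low values raised to 12.8, and with the region as a block in limma. A probe set was counted only when its Benjamini-Hochberg adjusted p was under 0.05 and both strains of one side lay above both strains of the other. A stricter set took the probe sets for which each of the 4 pairs of strains across the sides also passed on its own, in 1 direction. The gap is the distance between the nearest strain means of the sides. With a gap near 0, a strain of one side nearly met a strain of the other. A large difference then came from 1 or both of the remaining strains.

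Mean signals of the 40 arrays lay between 180.5 and 200.5 and medians between 43.6 and 67.1, with ranges that overlapped between the sides. Replicate arrays correlated with r of 0.983 to 0.996, lowest for the hypothalamus of 129S6/SvEvTac. The pituitary labels matched their markers. The summed signal of 14 pituitary hormone and regulator genes was 47793 to 67188 on pituitary arrays and at most 8107 on any other. Within a region the sum was high on 1 pag array of FVB/NJ (replicate 1, 6601 against 649 to 850 on the other 3 arrays of that side) and 1 hippocampus array of C57BL/6J (replicate 2, 3253 against 258 to 456). Without the first array 3297 probe sets were counted, without the second 3252, and without replicate 1 of the hypothalamus of 129S6/SvEvTac 3433, against 3391 with all arrays.

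Of 43927 probe sets tested, 1704 (3.88%) were counted as higher and 1687 (3.84%) as lower in 129S6/SvEvTac and A/J. By the adjusted p alone 4882 probe sets (11.1%) passed, and 1491 of these were left out because a strain of one side lay within the other. Among all probe sets, called or not, 33.2% had both strains of one side above both of the other, where a random order of the 4 strains gives a share of 0.333. In limma 9815 of the 43927 had an unadjusted p under 0.05, the share beside which the list counts below stand. It covers all probe sets, dim ones included, whereas a list gene was read by its brightest probe set. The same share was not taken for the brightest probe sets, so the 2 are not strictly alike. The median difference of all probe sets tested was 0.007. Most counted differences were small, with a median size of 0.29 on the log2 scale, and 156 (0.355%) exceeded 2-fold, 47 higher and 109 lower. In 965 counted probe sets (28.5%) the gap was under 25% of the difference, and in 475 it was over 75%. The stricter set held 278 probe sets, 116 higher (0.264%) and 162 lower (0.369%), with a median difference of 0.71 in size. The pairs of strains were called to unequal extents, from 5.14% of probe sets for A/J against FVB/NJ to 11.2% for 129S6/SvEvTac against FVB/NJ, 12.3% for 129S6/SvEvTac against C57BL/6J and 16.8% for A/J against C57BL/6J.

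The arrays are replicates of strains, and there are only 2 strains on a side. With the strain as the unit, the smallest two-sided p that an exact permutation test of 2 against 2 strains can reach is 0.333, so the p values below describe these 4 strains and no wider class. When strain was entered in limma as a random block, 384 probe sets were counted as higher and 493 as lower. That fit used the same correlation between arrays of a strain, 0.0837, for all probe sets. Its units were still the arrays, so these counts are not those of a test with the strain as the unit.

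**Figure D1:**
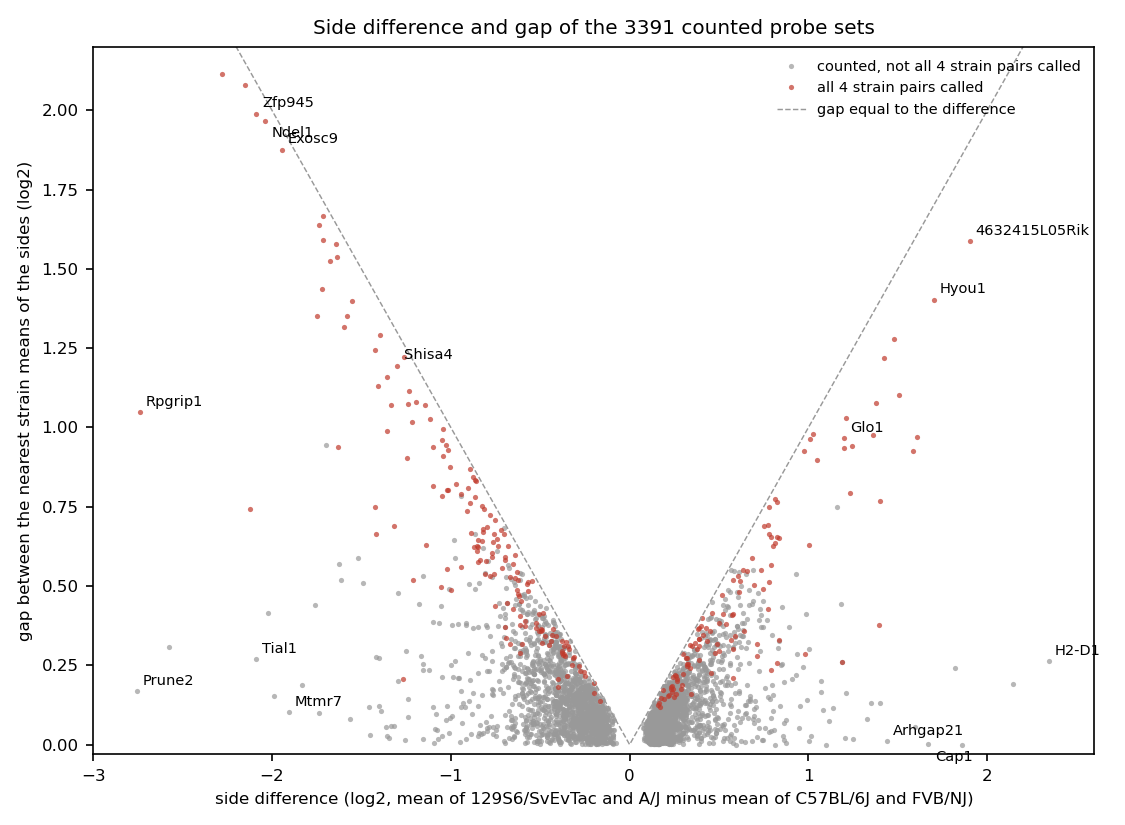
Side difference (log2, horizontal) against the gap between the nearest strain means (log2, vertical) for the 3391 counted probe sets. Red points are the 278 with all 4 strain pairs called, whose median gap is 0.52, the dashed line marks a gap equal to the difference, and named points at the bottom, such as Cap1 and Arhgap21, have gaps near 0.

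Glo1, which encodes glyoxalase 1, the enzyme that clears methylglyoxal with glutathione, was higher in 129S6/SvEvTac and A/J by all 4 of its probe sets. The brightest read 1317 to 1859 in 129S6/SvEvTac with a median of 1585, and 1534 to 2137 in A/J with a median of 1848. In C57BL/6J it read 694 to 999 with a median of 761, and in FVB/NJ 541 to 834 with a median of 704. The lowest array of the first side was thus above the highest of the second, in every region. The difference was 1.197 (standard error 0.03, 2.29-fold, limma adjusted p = 4.24e-25), with a gap of 0.97. The other 3 probe sets differed by 1.198, 1.36 and 1.40, and each had all 4 strain pairs called. Arrays of the sides were apart over all 40 arrays for 21 probe sets of the series (0.0478%), 3 of them of Glo1.

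Of 29 measured genes of glyoxal, glutathione and peroxide metabolism, Glo1 among them, 21 had a difference above 0 and 14 an unadjusted p under 0.05 in limma. Over all probe sets 9815 of 43927 had such a p. Of these 29, 3 were counted as higher and 1 as lower, and the median difference of the list was 0.07 against 0.02 for the brightest probe sets of all genes, of which 9.08% were counted. Gsr, glutathione reductase, which returns oxidized glutathione to its reduced form, had medians of 249 in 129S6/SvEvTac, 236 in A/J, 169 in C57BL/6J and 212 in FVB/NJ (difference 0.41, limma adjusted p = 1.43e-05). Gstt2, a glutathione transferase, differed by 0.41 as well. Cat, catalase, which breaks down hydrogen peroxide, went the other way, with medians of 261 and 298 against 408 and 444 (difference -0.50, limma adjusted p = 9.5e-07). For Gsr, Gstt2 and Cat the ranges of the sides overlapped.

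Of the 156 counted probe sets over 2-fold, 76 had all 4 pairs called. Among the higher ones, 4632415L05Rik, a gene named only by its clone, read 108 to 162 (median 131) in 129S6/SvEvTac and 127 to 232 (median 164) in A/J. Its signal was 31.3 to 70.1 (median 44.4) in C57BL/6J and 19.9 to 54.8 (median 37.9) in FVB/NJ. The sides did not overlap on any array, and the difference was 1.90 (standard error 0.11, 3.73-fold, limma adjusted p = 4.09e-16). Hyou1, an oxygen-regulated chaperone of the endoplasmic reticulum, had medians of 208 and 196 against 79.5 and 59.9 (difference 1.70, gap 1.40). Its level was highest in the pituitary gland in all 4 strains, so the ranges over regions overlapped (152 to 1011 and 118 to 608 against 36.1 to 319 and 27.9 to 165), but in each region the 4 arrays of one side lay above the 4 of the other. The arrays of the sides were apart in all 5 regions for 67 probe sets (0.153%), each of which was counted and had all 4 pairs called.

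Chchd3, a subunit of the complex that shapes the inner mitochondrial membrane, had medians of 62.7 and 72.7 against 21.4 and 26.6 (difference 1.48, gap 1.28). Ankrd11, a chromatin regulator, had medians of 241 and 211 against 65.0 and 104 (difference 1.505, gap 1.103). Sdf4, a calcium-binding protein of the Golgi, differed by 1.59 and Jkamp, a membrane protein that binds the kinase JNK, by 1.42. Each of these 4 genes has other probe sets that were not counted. Of the probe sets naming the gene, 1 of 3 was counted in this direction for Chchd3, 3 of 7 for Ankrd11, 2 of 3 for Sdf4 and 1 of 4 for Jkamp.

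Among the lower genes, Exosc9, a subunit of the RNA exosome and read by 1 probe set, gave 33.7 to 95.3 (median 65.0) in 129S6/SvEvTac and 34.0 to 106 (median 64.4) in A/J. C57BL/6J gave 210 to 324 (median 264) and FVB/NJ 188 to 293 (median 234). No array of one side reached the other, and the difference of -1.95 (standard error 0.12, 3.85-fold, limma adjusted p = 6.49e-15) was close to its gap of 1.88. Ndel1, a partner of dynein in neuronal migration, was near 0 in 129S6/SvEvTac and A/J (medians -0.70 and -6.66) and had medians of 46.6 and 50.6 in C57BL/6J and FVB/NJ, by 1 of its 2 probe sets (difference -2.04). Taf15, an RNA-binding protein, had medians of 45.3 and 45.2 against 158 and 143 (difference -1.72). Erc1, a scaffold of the presynaptic active zone, had medians of 23.5 and 26.0 against 76.2 and 83.0 (difference -1.74).

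Further genes of the stricter set were chosen after their values were seen. Shisa4, a membrane protein related to adaptors of receptors, had medians of 235 and 242 against 582 and 532 (difference -1.30, limma adjusted p = 9.51e-19). Slc38a1, a transporter that carries glutamine into neurons, had 438 and 441 against 724 and 775 (difference -0.89). Gas5, a long noncoding RNA that hosts small nucleolar RNAs, had 811 and 882 against 1536 and 1630 on its brightest named probe set (difference -0.87), and 3 of its 4 probe sets were counted as lower. Tenm2, a teneurin that joins synaptic partners, had 274 and 231 against 482 and 418 (difference -1.002), by 1 of 4 probe sets. Taf15 and Erc1 were likewise chosen with their values known.

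**Figure D2:**
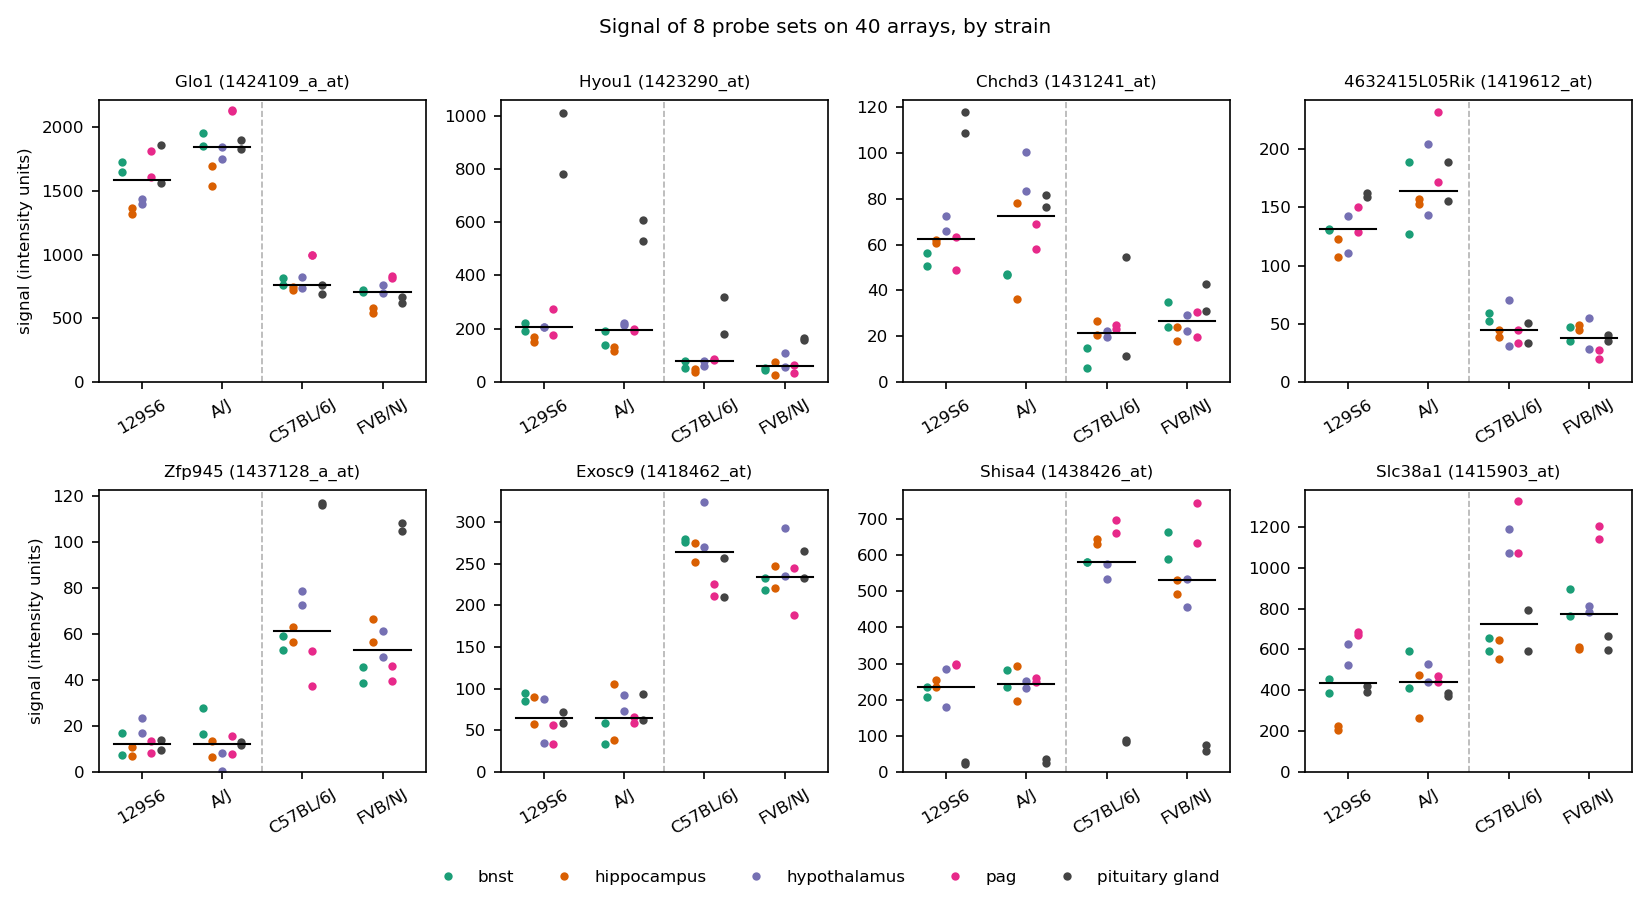
Signal (intensity units, linear) of 8 probe sets on each of 40 arrays, with strains on the horizontal axis, points coloured by region and bars at the median of the 10 arrays of a strain. Glo1, Hyou1, Chchd3 and 4632415L05Rik are higher and Zfp945, Exosc9, Shisa4 and Slc38a1 lower left of the dashed line, and Hyou1 and Shisa4 show how far the pituitary gland stands from the brain.

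Several of the largest mean differences came from a single strain, although the strains were in the order the rule asks for. Prune2, a protein with a BCH domain, had a probe set at 797 to 1467 (median 1108) in C57BL/6J and with medians of 28.1 in 129S6/SvEvTac, 27.8 in A/J and 34.0 in FVB/NJ. Its difference of -2.76 was the largest in size among the genes named here, but its gap was 0.17 and another of its probe sets had a higher mean in the first side, by 0.22. Cap1, a regulator of actin, had a median of 62.9 in C57BL/6J against 514 to 586 in the other strains (difference 1.67, gap 0.0018). Arhgap21, a GTPase-activating protein, was low only in FVB/NJ, with a median of 89.5 against 636 to 720 (difference 1.44, gap 0.01), among the 4 strains.

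Tial1, an RNA-binding protein of stress granules, was near 0 in 129S6/SvEvTac (median 3.65) and had medians of 170, 215 and 205 in the other strains. Mtmr7, a lipid phosphatase, was high only in C57BL/6J among the 4 strains, with a median of 408 against 32.2 to 36.5. A probe set of H2-D1, a class I histocompatibility gene, had a median of 216 in A/J and -9.58 to 2.77 in the other strains, which gave the largest positive difference of a named gene, 2.34. Alad, which makes a heme precursor, was counted as higher by both of its probe sets, but with medians of 296 and 443 against 131 and 295 the gap of its brightest probe set was 0.0045. Its difference was not of a single strain, as A/J was highest and C57BL/6J lowest of the 4. Rpgrip1, a ciliary protein known from photoreceptors, was an intermediate case. Its medians were 45.4 and 40.8 against 792 in C57BL/6J and 89.2 in FVB/NJ, and all 4 pairs passed, although most of the difference of -2.74 came from C57BL/6J.

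Probe sets of a gene were often not counted together. Of 2421 counted genes, 1779 had 2 or more tested probe sets, and in 1427 of these only 1 probe set was counted. All probe sets were counted in 1 direction for 92 genes, 287 genes had 2 or more counted in 1 direction and none in the other, and 65 genes had probe sets counted in opposite directions. Besides Glo1 and Alad, the genes with the largest agreeing differences were Lsm11, Supt16, Arntl2 and Ppp1r16b among the higher and Hspa1b, Psmc3ip, Cttnbp2, Zfp52, Zfp40 and Rps6 among the lower.

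Lsm11, a component of the particle that processes histone messages, differed by 1.61 and 1.23, and Ppp1r16b, a regulatory subunit of a protein phosphatase, by 0.78 on each of its probe sets. Hspa1b, an inducible heat shock protein of the HSP70 family, was lower by 3 probe sets, with differences from -1.42 to -1.32. On one of them it read 40.5 to 155 (median 67.1) in 129S6/SvEvTac and 58.9 to 206 (median 93.3) in A/J. It read 97.2 to 316 (median 134) in C57BL/6J and 205 to 590 (median 312) in FVB/NJ. FVB/NJ thus had the highest median of the 4 strains, and its lowest array (205) was just under the top array of A/J (206). C57BL/6J overlapped with FVB/NJ and with the other side. Probe sets of this family can also read the near-identical Hspa1a. Dnajb1, the cochaperone of HSP70, was lower by both of its probe sets, one of which had all 4 pairs called with a difference of -0.26. Cttnbp2, a cortactin-binding protein of dendritic spines, differed by -1.63 and -0.64, and Rps6, a protein of the small ribosomal subunit, by -1.55 and -0.37. The smaller difference of Rps6 was near the floor, with medians of 10.6 to 20.1, and its call ended without any 1 of 15 arrays.

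Counted genes of the stricter set lay beside each other on the chromosomes in places. In the order of genes of the GRCm38.p6 annotation, 59 of its 183 placed genes (32.2%) had another member within 5 tested genes to either side. By the same measure 1927 of the 2408 placed counted genes (80.0%) had another counted gene. The set holds 1.03% of all placed genes and the counted genes 13.6%, so the shares with a neighbour cannot be set against each other, and no test was made. Chromosome 17 held 21 genes of the stricter set among its 826 placed genes (2.54%), and the next highest share was 1.98% on chromosome 18. The longest run lay on chromosome 17. It contained 9 zinc finger genes, namely Zfp52, Zfp983, Zfp229, Zfp942, Zfp994, Zfp944, Zfp758, Zfp945 and Zfp40, members of a family of DNA-binding repressors that is clustered in the genome.

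Of these 9 genes, Zfp983 was higher in 129S6/SvEvTac and A/J (0.73) and the other 8 were lower. Zfp945 read 6.83 to 23.5 (median 12.2) in 129S6/SvEvTac and 0.46 to 27.7 (median 12.3) in A/J, at or near the floor. Its signal was 37.2 to 117 (median 61.1) in C57BL/6J and 38.5 to 108 (median 53.2) in FVB/NJ, and no array of one side reached the other (difference -2.09, limma adjusted p = 1.66e-15). Zfp40 was lower by all 4 of its probe sets, from -1.26 to -0.39, and Zfp994 by -1.36. C3H/HeJ and DBA/2J, which took no part in the fit, split over this run. Zfp945 had a median of 51.4 in C3H/HeJ and 9.54 in DBA/2J, and the brightest probe set of Zfp40 146 and 63.2. Zfp983 was 32.7 in C3H/HeJ and 62.0 in DBA/2J, so that in these 3 genes C3H/HeJ was on the side of C57BL/6J and FVB/NJ.

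Shorter runs held genes of either direction. On chromosome 3, Exosc9 and Cetn4, a centrin of basal bodies, were lower (-1.95 and -1.05), while Bbs7, a subunit of the ciliary BBSome between them, was higher (0.64). On the same chromosome Tifa, an adaptor of innate immune signalling, and Ap1ar were higher (0.83 and 0.51) and Fam241a was lower (-1.14). Lsm11 and Thg1l, which adds a base to a transfer RNA, were both higher on chromosome 11 (0.97 for Thg1l), as were Fgfr1op2 and Arntl2, a partner in the circadian clock, on chromosome 6 (0.75 and 0.81) and Trappc2l and Ankrd11 on chromosome 8 (0.48 for Trappc2l). On chromosome 4, Haus6, Rps6 and Slc24a2, an ion exchanger, were all lower (-0.71, -1.55 and -0.62). These runs were picked after the values were seen. The genes of a run are neighbours and are not independent observations.

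Of the brightest probe sets of all genes 9.08% were counted. Some neurotransmitter and peptide lists held no counted gene, and others, given below, held 1 to 3. No list was tested against that share. By limma, none was counted of 12 GABA-A receptor subunits, 6 genes of GABA synthesis and transport, 18 serotonin genes and 22 neuropeptides, and at an unadjusted p under 0.05 there were 1, 1, 2 and 0. Gabra2, a GABA-A receptor subunit, was lowest in C57BL/6J. Its medians were 232 and 244 in the first side, 108 in C57BL/6J and 222 in FVB/NJ, which gave a difference of 0.69 (limma adjusted p = 2.57e-06) without the strains being in order.

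Of 20 glutamate receptor genes 2 were counted, both as higher. Gria1, an AMPA receptor subunit, had medians of 1283 and 1389 against 749 and 1196 (difference 0.29), with C57BL/6J lowest. Grin3a, an NMDA receptor subunit, differed by 0.22. Drd2, the dopamine receptor of the pituitary gland and striatum, was the counted gene of 11 in the dopamine and noradrenaline list (0.41). Its signal reached 1682 and 1399 in 129S6/SvEvTac and A/J against 737 and 761 at most in C57BL/6J and FVB/NJ, and it was not called without the pituitary gland or without the hippocampus.

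Of 19 genes of the stress axis, Avp was counted as higher and Ucn and Tsc22d3 as lower. Avp, the precursor of vasopressin, differed by 0.56 over all regions (limma adjusted p = 0.0159). In the hypothalamus, where it was brightest, its signal was 4671 to 7055 in 129S6/SvEvTac and A/J and 5017 to 5308 in C57BL/6J and FVB/NJ, with a difference of 0.11 (limma adjusted p = 0.94). The pituitary gland, whose posterior lobe stores the peptide and holds axons of the hypothalamus, gave 502 to 1016 against 130 to 355, a difference of 1.60 (limma adjusted p = 0.00063). The side by region interaction of Avp was not called (limma adjusted p = 0.105), so a difference between these regions was not established. Without the pituitary gland, or without the bnst, Avp was not called. Ucn, urocortin, a ligand of the receptors of corticotropin-releasing hormone, had medians of 15.9 and 11.7 against 28.1 and 10.5, near the floor, and its call ended without any 1 of 12 arrays. Tsc22d3, a target of the glucocorticoid receptor, differed by -0.28. Sgk1, another such target, passed by the adjusted p but was high only in C57BL/6J among the 4 strains (median 1260 against 715 to 735).

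In the endocannabinoid list, Faah, which breaks anandamide down, was higher (0.24) and Napepld, which makes it, lower (-0.41), among 8 genes. With strain as a random block neither was called. Napepld was also not called with each array scaled to 1 median, without the hippocampus or without the hypothalamus. Cckbr, the cholecystokinin B receptor, was the counted neuropeptide receptor of 28 (0.43, limma adjusted p = 0.0495), and its call ended without any 1 of 28 arrays. Of 25 genes of energy metabolism, Ndufs1, Uqcrc1 and Atp5g1, subunits of respiratory complexes I and III and of ATP synthase, were higher by 0.12 to 0.21. In this list 20 of 25 differences were above 0 and the median was 0.07, against 0.02 for the brightest probe sets of all genes. An unadjusted p under 0.05 in limma was reached by 15, against 9815 of all 43927 probe sets. With each array scaled to 1 median none of these 3 genes was called. Of 30 genes of cell adhesion and axon guidance, Cdh13, Slit2 and Unc5c were counted as higher (0.64, 0.32 and 0.22). In this list 18 differences were below 0 and the median was -0.04. The call of Cdh13 ended without any 1 of 22 arrays, and Slit2 and Unc5c were not called without the hippocampus or without the hypothalamus.

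Of 16 genes of antigen presentation, H2-K1 and B2m were counted as lower. H2-K1, a class I heavy chain, had medians of 367 in 129S6/SvEvTac, 75.4 in A/J, 383 in C57BL/6J and 501 in FVB/NJ (difference -1.40, gap 0.12), so A/J stood apart. B2m, the light chain of class I molecules, had 687, 495, 977 and 844 (difference -0.58, gap 0.13, limma adjusted p = 6.72e-13). H2-D1 was higher by 3 of its 9 probe sets, while its brightest one had a difference of -0.63, out of strain order and highest in FVB/NJ (median 1329 against 446 to 559). Class I genes are near-identical copies in places, so these readings are uncertain. None of 20 genes induced by interferon was counted. An unadjusted p under 0.05 in limma was reached by 4 of the 20, against 9815 of all 43927 probe sets. Of the 20 differences 18 were below 0, with a list median of -0.10. Gbp2b, an interferon-induced guanylate-binding protein outside that list and chosen after its values were seen, was higher (difference 1.05), with 2.56 in the pituitary gland and 0.30 in the bnst.

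Glial genes were lower in 129S6/SvEvTac and A/J where they were counted. Of 14 genes of oligodendrocytes and myelin, 13 had a difference below 0 and the list median was -0.17, but only Mag, Cnp and Mal were counted (-0.36, -0.19 and -0.21). Mag and Cnp are proteins of the inner myelin layers and Mal is a lipid raft protein of myelin. The summed signal of the 14 genes was 12521 to 15150 against 14832 to 18324 in the hippocampus, 17351 to 19841 against 19008 to 22547 in the bnst, and 12986 to 17615 against 14482 to 17800 in the hypothalamus. In the pag it was 18089 to 21929 against 19415 to 20990, so the sides overlapped in each region. None of the 14 markers was at or under 0 in median on either side. With each array scaled to 1 median, none of Mag, Cnp and Mal was called, and the call of Cnp also ended without any 1 of 13 arrays.

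Of 11 astrocyte genes, Gfap, the intermediate filament of astrocytes, and Gjb6, a gap junction protein, were lower (-0.42 and -0.19), while 4 differences were above 0, that of Slc1a2, a glutamate transporter, being 0.20. The call of Gjb6 ended without any 1 of 3 arrays. Of 11 microglial genes, C1qa, Tyrobp and Itgam, a complement component, a signalling adaptor and an integrin, were lower (-0.40, -0.36 and -0.41) and 4 differences were above 0. C1qb and C1qc passed by the adjusted p but were high only in C57BL/6J among the 4 strains. The summed signals overlapped in each of these lists, from 14471 to 19512 against 15826 to 19039 for astrocytes and 1840 to 3767 against 2198 to 3471 for microglia over the 4 regions other than the pituitary gland. The median microglial sum over these regions was lowest in 129S6/SvEvTac (2363) and highest in A/J (3100), with 2876 in C57BL/6J and 2690 in FVB/NJ. Abcb1a, an efflux pump of brain capillaries, was the counted gene of 9 endothelial genes (-0.27), and its call ended without any 1 of 4 arrays and with each array scaled to 1 median. Among 9 striatal genes Drd2 was higher and Pde10a, a phosphodiesterase of medium spiny neurons, lower (-0.24). No gene was counted among 8 of choroid plexus, 3 of red blood cells, 8 of thalamic neurons, 11 of hippocampal neurons and 14 of the pituitary gland, where 1, 0, 2, 2 and 0 had an unadjusted p under 0.05 in limma. Sums of 10 marker lists were looked at in each of 5 regions. Those that did not overlap are given here without a test, and with so many looked at some would be apart by chance. In the pag, thalamic markers summed to 4750 to 5455 against 3793 to 4702 and hippocampal markers to 1255 to 1515 against 864 to 1197. In the bnst, hippocampal markers summed to 2552 to 2815 against 2416 to 2489. In the pituitary gland, astrocyte markers summed to 3649 to 4374 against 3393 to 3630 and striatal markers, Drd2 among them, to 2959 to 3722 against 2333 to 2943. The part of cell makeup in the differences was not tested.

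Of 15 circadian clock genes, Nr1d1, a repressor of the clock, was higher (0.36), and Per2, a period gene, and Npas2, a partner of the same loop, were lower (-0.45 on each). The call of this Npas2 probe set ended without any 1 of 9 arrays, without the bnst and without the hippocampus. Per2 was lower by all 3 of its probe sets. A second probe set of Npas2, chosen after its values were seen, differed by -1.36 with all 4 pairs called, by -2.32 in the bnst and -2.45 in the hippocampus. Per3 was carried by FVB/NJ, where a probe set had a median of 140 against -3.83 to 13.7. Dissections were spread over several hours of the day, and the hour of an array was not used here. No immediate early gene of 16 was counted, and 2 had an unadjusted p under 0.05 in limma.

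Among 19 genes listed as known carriers of DNA variants between inbred strains, Glo1 and Alad were counted as higher and H2-K1 as lower, and 5 others passed by the adjusted p out of strain order. Among these were Wdfy1, low only in C57BL/6J among the 4 strains (median 175 against 466 to 540), Nnt, a mitochondrial transhydrogenase, also lowest there (215 against 351 to 424), and Cd59a, an inhibitor of complement, lowest in 129S6/SvEvTac (110 against 201 to 449). Over all 27 lists, 402 of 450 genes were measured by a probe set of 1 gene, and 35 were counted, 17 as higher and 18 as lower, a share near the 9.08% of all genes. With strain as a random block in limma, 8 of the 35 were called.

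**Figure D3:**
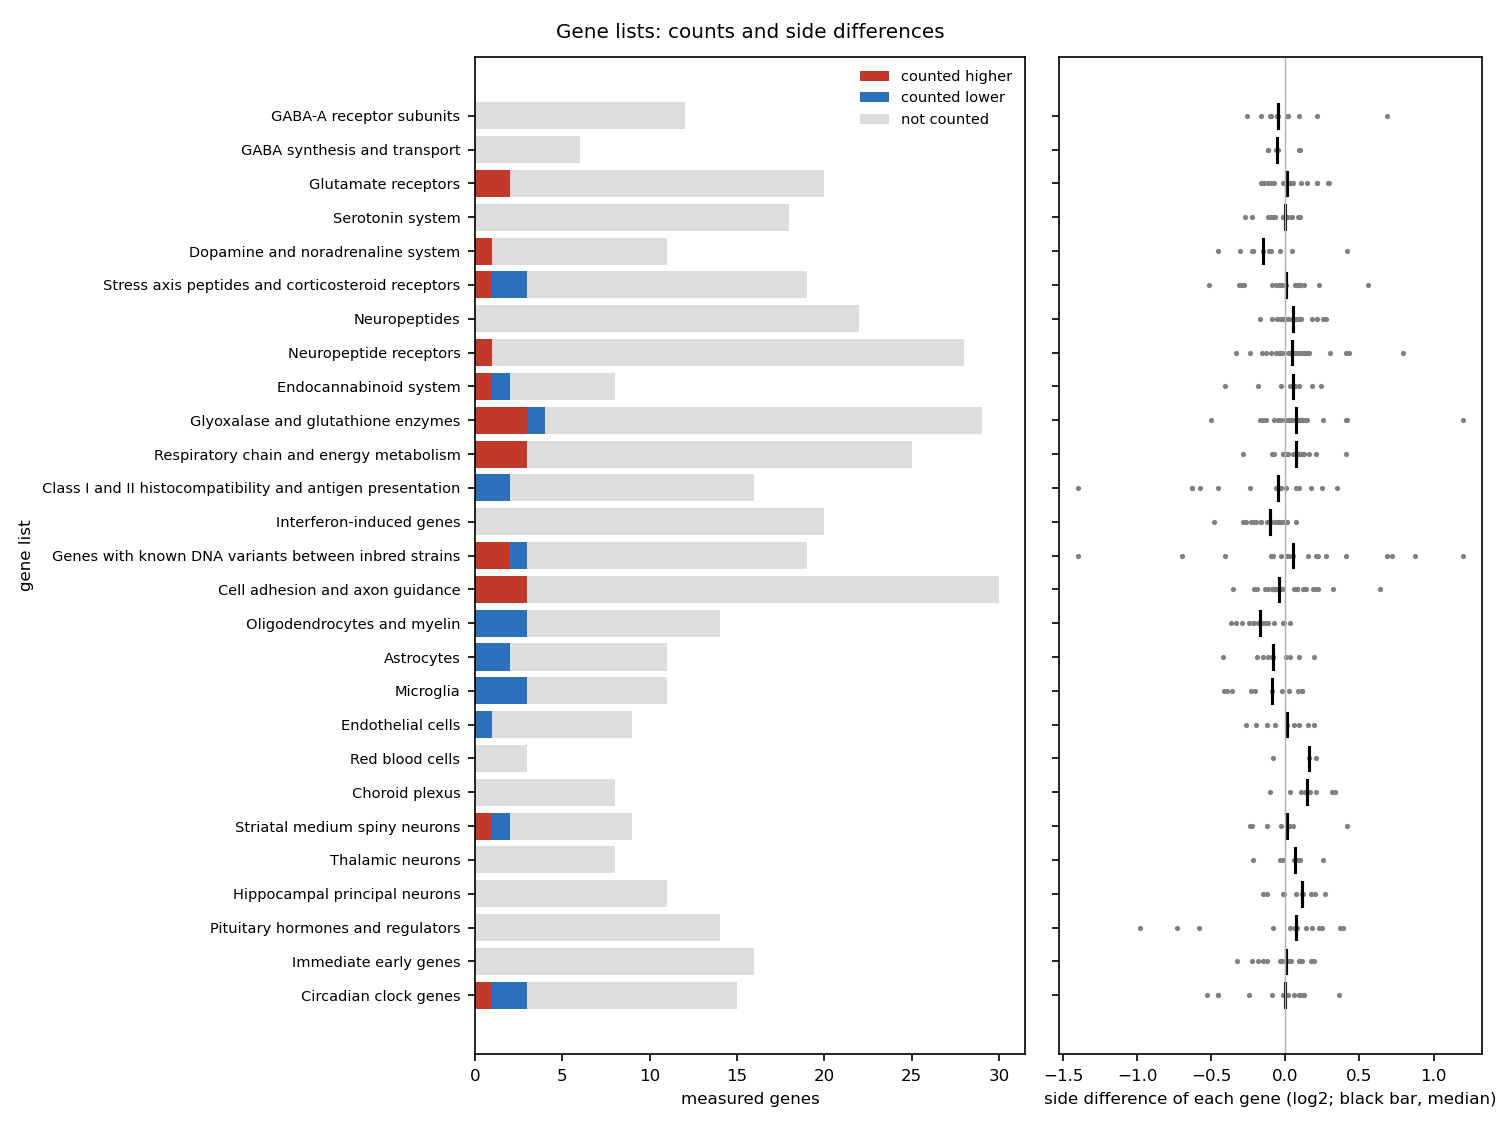
Left, measured genes of each list (bars from 0) that were counted as higher, counted as lower or not counted. Right, the log2 side difference of each gene as a point with the list median as a bar. Medians lie between -0.17 and 0.16, and 11 lists have no counted gene.

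The regions gave different numbers of counted probe sets when each was tested on its own 8 arrays within limma. In the pituitary gland 1658 (3.77%) were higher and 1552 (3.53%) lower, and in the hippocampus 874 (1.99%) and 1133 (2.58%). The bnst gave 518 (1.18%) and 672 (1.53%), the pag 408 (0.929%) and 570 (1.3%), and the hypothalamus 320 (0.728%) and 490 (1.12%). Single arrays moved these totals. Leaving out any 1 array of the region gave 2081 to 3201 in the pituitary gland, 1003 to 2563 in the hippocampus and 619 to 1420 in the bnst. It gave 558 to 1586 in the pag. For the hypothalamus it gave 443 to 2915, where the highest came without replicate 1 of 129S6/SvEvTac. No order of the regions was read from these counts. In each of the 5 regions 89 probe sets (0.203%) were counted, 29 higher and 60 lower, and 74 were counted in opposite directions in 2 regions.

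Of the counted probe sets 2365 (69.7%) had the same direction in all 5 regions, as did 273 of the 278 of the stricter set. The side by region interaction passed for 1671 probe sets (3.8%), among them 275 counted ones and 23 of the stricter set. The interaction count was 221 without the pituitary gland, and 4316 without replicate 1 of the hypothalamus of 129S6/SvEvTac.

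**Figure D4:**
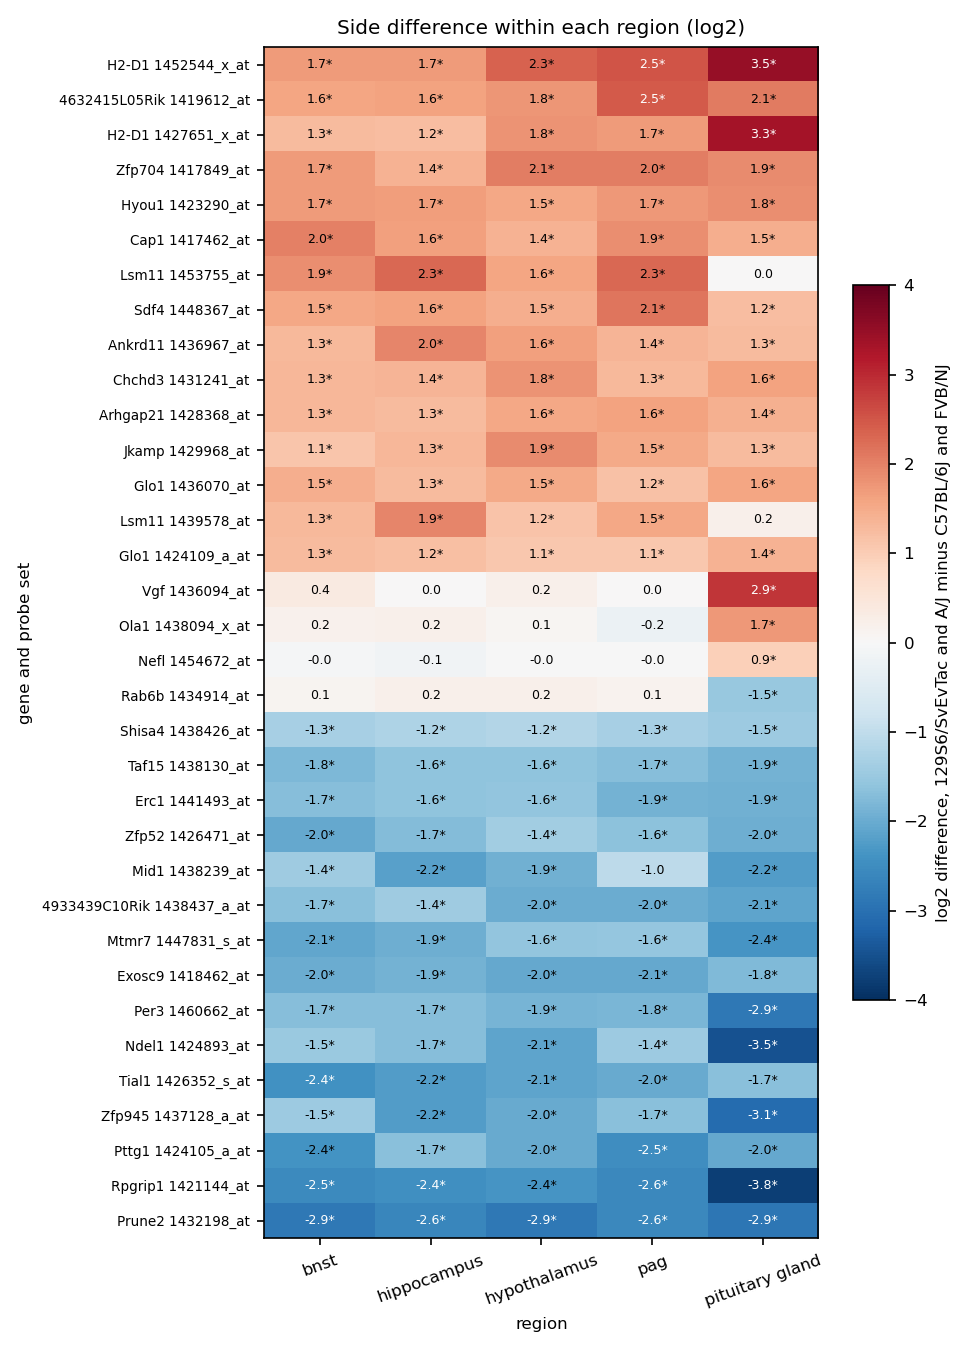
Log2 side difference within each region (columns) for named probe sets (rows), with a star where the limma adjusted p in that region was under 0.05, whatever the order of the strains. Most rows have 1 colour throughout, whereas Vgf, Ola1, Nefl and Rab6b have a star in the pituitary gland alone and Lsm11 has one in each of the other regions.

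The genes with the smallest interaction p differed mainly in the pituitary gland. Vgf, a precursor of secreted neuropeptides, read 90.3 and 166 in 129S6/SvEvTac and 77.5 and 66.2 in A/J there, against -4.15 to 2.80 on the 4 arrays of C57BL/6J and FVB/NJ. Its pituitary difference was 2.87 (standard error 0.18, limma adjusted p = 6.44e-11), and its differences in the other regions lay between 0.00 and 0.36. Nefl, the light neurofilament chain of axons, differed by 0.94 in the pituitary gland and by -0.13 to -0.02 elsewhere. Ola1, an ATPase related to translation factors, differed by 1.73, with 2378 and 3286 in 129S6/SvEvTac. Rab6b, a Rab GTPase of neurons, differed by -1.504, with 180 and 224 in C57BL/6J against 9.81 to 25.9 on the other 6 arrays. Cdh13, a cadherin anchored by lipid, differed by 2.48 in the pituitary gland and by 0.12 to 0.27 elsewhere, and Alox15, a lipoxygenase, by -2.62, with 147 and 182 in FVB/NJ. Tacc2, a centrosomal protein, differed by -0.93 there.

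Lsm11 showed the reverse distribution. Its brighter probe set read 376 to 418 in the hippocampus of 129S6/SvEvTac and A/J against 85.5 to 142 in C57BL/6J and FVB/NJ, a difference of 1.95. In the pituitary gland the values were 62.1 to 125 and 55.8 to 121, with a difference of 0.19 (limma adjusted p = 0.44). Zfp945, Ndel1 and Rpgrip1 kept their direction in all regions, with pituitary differences of -3.09, -3.47 and -3.77. For Zfp945 and Ndel1 one side was at or near the floor, so the size of their differences follows the level of the other side and the regions were not ranked. Gria1 was higher in the pag, bnst and hypothalamus (0.61, 0.46 and 0.34) and had a difference of -0.16 in the pituitary gland. The interaction was called for 1 of the 4 probe sets of Glo1, which ranged from 1.19 in the bnst to 1.71 in the pituitary gland.

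**Figure D5:**
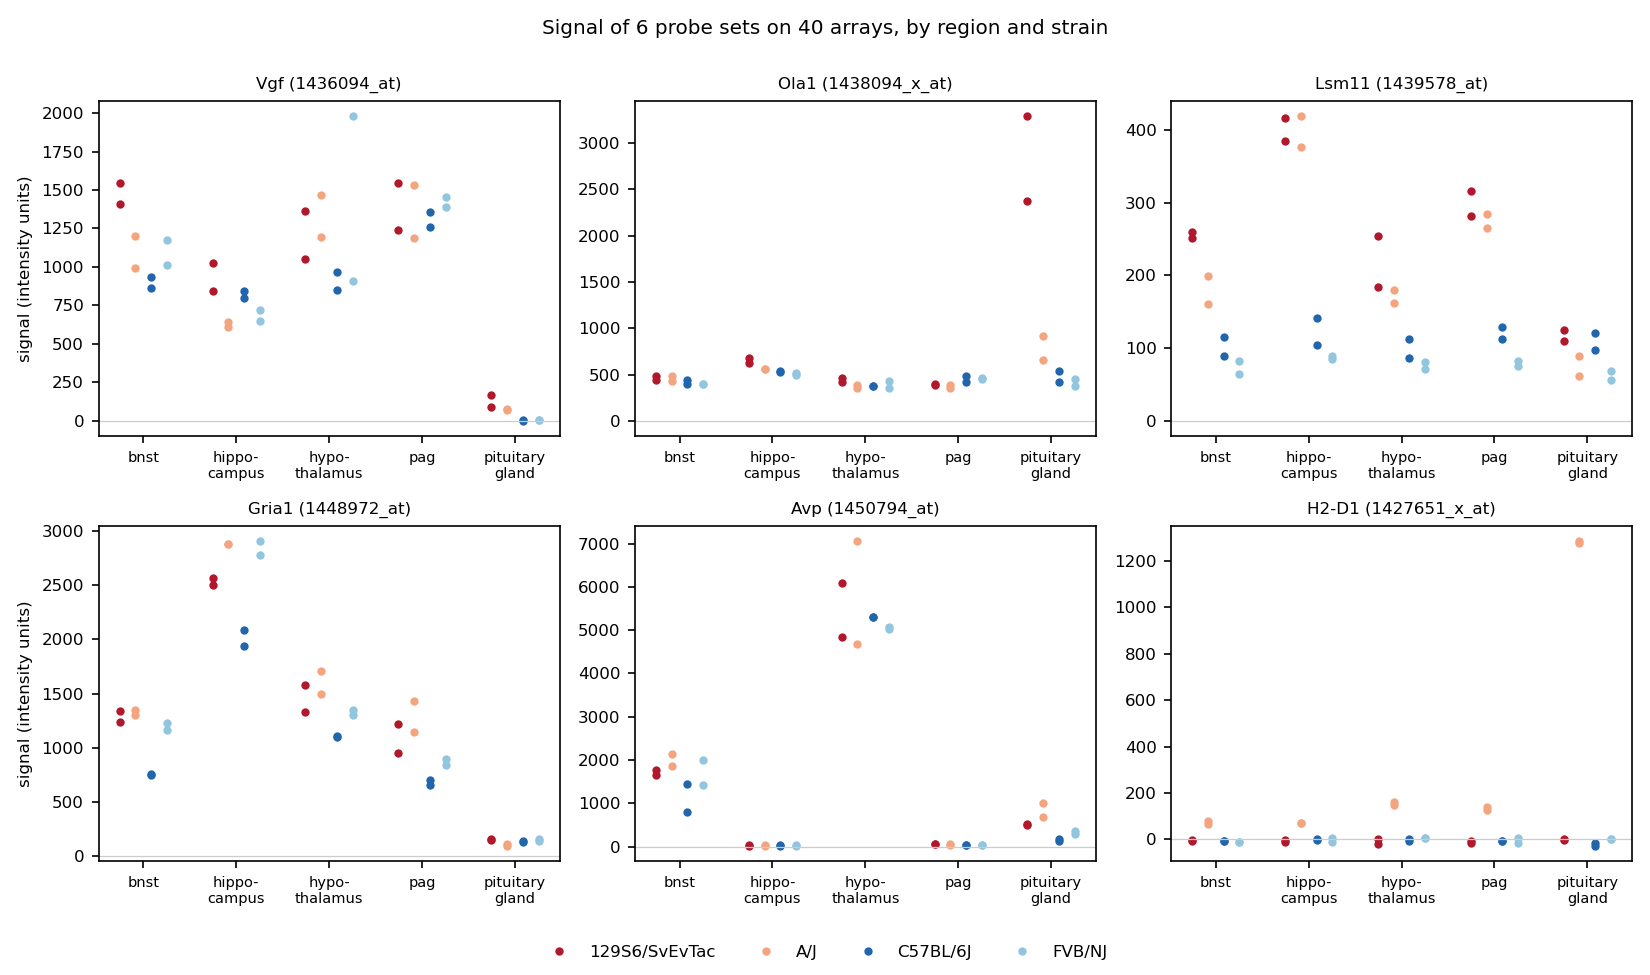
Signal (intensity units, linear) of 6 probe sets on 40 arrays by region, coloured by strain, with 2 points for each strain and region. Vgf and Ola1 separate in the pituitary gland, H2-D1 by this probe set has signal in A/J alone among the 4 strains and most of all in its pituitary gland, Lsm11 separates in the brain regions, and Avp lies between 4671 and 7055 in the hypothalamus of all 4 strains.

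C3H/HeJ and DBA/2J were placed by their mean over regions for the 278 probe sets of the stricter set. Both were nearer to 129S6/SvEvTac and A/J in 118 (42.4%) and both nearer to C57BL/6J and FVB/NJ in 54 (19.4%), while C3H/HeJ alone joined the first side in 47 and DBA/2J alone in 59. On the brightest Glo1 probe set their medians were 1368 and 1458, close to 129S6/SvEvTac, and for Hyou1 219 and 210. For Exosc9 they were 82.6 and 87.5, also near the first side. Pmepa1, a regulator of TGF-beta signalling chosen after its values were seen, had medians of 34.4 and 30.5 in 129S6/SvEvTac and A/J, 91.7 and 102 in C57BL/6J and FVB/NJ, and 123 and 121 in C3H/HeJ and DBA/2J, which set it apart in the first side alone among 6 strains. Jkamp had 41.9 and 17.5, and 4632415L05Rik 180 and 34.5, so C3H/HeJ resembled the first side and DBA/2J the second in both genes.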

How the data were processed

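The deposited values are intensity values, which the authors made by absolute analysis of the scanned arrays in the TeraGenomics system. They are background-corrected and scaled signals on a linear scale, and 5.40% of those of the 40 arrays are below 0. The version and the scaling target are not given in the sources used here. Control probe sets (64) were left out of 45037 others. Signals under the 20th percentile of all 61 arrays (12.8) were raised to it and log2 was taken. To the 43927 probe sets above it on at least 1 of the 40 arrays, limma (3.58.1, under R 4.3.3) fitted a linear model (a term for each strain and each region, eBayes with a trend, 32 residual degrees of freedom). A mean for each of the 20 groups was used for regions and the interaction (20 degrees of freedom). The p values were Benjamini-Hochberg adjusted over all tested probe sets. The number of arrays limits the precision.

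Array annotation, updated through RefSeq, named 1 gene for 34233 tested probe sets, several for 901 and none for 8793. A list gene was read by its brightest such probe set. Named genes are, in each direction, the 12 with the largest difference that are counted with 1 direction in 5 regions, the 6 with the largest median difference among genes with at least 2 probe sets that were all counted, and, in either direction, the 8 with the smallest interaction p and the list members. Not all are described, and others are said to have been chosen after their values were seen. The comparison, its members and the lists were chosen with earlier results of these data known.

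The fit was tested on simulated data with 43927 probe sets, where 79 of 80 changed by 1 and 66 of 80 changed by 0.5 on the log2 scale were recovered and 9 unchanged ones were called. The changed probe sets were drawn from those well above the floor, and the noise was normal and independent between arrays. Recovery near the floor and variation between strains of a side were therefore not tested. The main fit did not pair arrays by replicate number. Deviations of same-numbered arrays correlated with r from -0.32 to 0.36, with a median of -0.014, and 5 of 30 pairs exceeded 0.1. A/J and FVB/NJ reached 0.20 in the bnst, 0.36 in the hippocampus and 0.29 in the pituitary gland. In the hypothalamus and the pag their r was -0.02 and 0.01. For 129S6/SvEvTac and A/J r was -0.32 in the bnst and in the hippocampus. In the bnst, replicate 1 held 2 mice and replicate 2 held 3 in each strain. Whether the number marks a shared condition elsewhere was not tested. Alternatives were other floors, scalings, filters, error models and array sets.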

Additional observations from a re-analysis of the deposited data

Results flagged for a closer look

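The side difference changed with the region, by the limma interaction test, for 31 of 147 probe sets, some of which were chosen for the smallest interaction p, and for 3.8% of all probe sets tested. The adjusted p was 3.79e-10 for Rab6b, 9.39e-08 for Ola1, 2.41e-07 for Tacc2, 3.19e-07 for Vgf and also 3.19e-07 for Nefl, 1.43e-06 for Alox15, 3.18e-06 for Cdh13 and 1.62e-05 for Gbp2b. It was 3.45e-08 and 0.00658 for the probe sets of H2-D1 read only in A/J among the 4 strains, and 0.000118 and 0.00118 for those of Lsm11. It was 0.000429 for Rpgrip1, 0.00169 for Gria1, 0.00244 for Zfp945, 0.00317 for Cap1, 0.00385 for Npas2, 0.00651 for Ndel1 and 0.011 for Atp5g1. The remaining values were 0.0175 for Tifa, 0.0227 for Trappc2l, 0.0244 for Gsr, 0.0265 for Fam241a, 0.0301 for Glo1, 0.0324 for Arntl2, 0.0354 for Alad, 0.0358 for Ndufs4, 0.0365 for Ndufs1, 0.0367 for Kantr, 0.0376 for Cttnbp2 and 0.0381 for Slit2. For the 8 genes with the smallest p the region that stood apart was the pituitary gland.

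In 6 of 100 groups of 4 arrays (a side in a region, for each marker list) 1 array stood far from the other 3 in summed marker signal, where chance flags about 1 in 20 groups. Astrocyte markers summed to 16531 in replicate 1 of the hippocampus of 129S6/SvEvTac (18118 to 18211 in the others). Choroid plexus markers summed to 2009 in replicate 1 of the bnst of A/J (6926 to 7766) and to 1545 in replicate 1 of the hypothalamus of 129S6/SvEvTac (444 to 481). Striatal markers summed to 4449 in replicate 1 of the hypothalamus of FVB/NJ (3222 to 3344). Pituitary markers summed to 3253 in replicate 2 of the hippocampus of C57BL/6J (258 to 456) and to 6601 in replicate 1 of the pag of FVB/NJ (649 to 850). Their part in the results was not tested beyond the counts without single arrays.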

How the results depend on the processing

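Of 121 counted probe sets described, 113 were called without each of the 40 arrays in turn and 83 under each of the 16 other log2 settings. A call here is an adjusted p under 0.05 for the side difference. Of the 65 with all 4 strain pairs called in the main fit, all kept this call without each array and 61 under each setting. The other 4 (Arntl2, Haus6, Fam241a and Zfp942) lost it at a floor of the 40th percentile. Strain order and the 4 pairs were not checked again for single probe sets. The number with all 4 pairs was 187 without the bnst and 198 with each array scaled to 1 median. The counts moved more, from 1704 higher and 1687 lower, 278 with all 4 pairs and 1671 with an interaction. With each array scaled to 1 median they were 1067 higher, 951 lower and 619 with an interaction, with 508 in the bnst, 893 in the hippocampus and 430 in the hypothalamus. With strain as a random block they were 384, 493 and 386, at an adjusted p under 0.01 975 higher and 1032 lower, without the bnst 1058 and 1111, and without the hippocampus 1039 and 1046, with 1011 interactions. The 40th percentile floor left 84 over 2-fold and 2882 interactions. The 61-array fit had 423 with all 4 pairs. Interactions were 3029 on signals with no log, 223 with the strain difference within a side in the residual, 1096 without a trend, 2820 without the hypothalamus, 593 without the pag and 221 without the pituitary gland. With the replicate number as a block within regions, 1537 were higher, 1558 lower and 1045 had an interaction. The cause was not tested. The side differences of Rab6b, Tacc2, Nefl and Alox15, none of them called, turned sign without the pituitary gland, to 0.1625 (limma adjusted p = 0.00504), 0.119 (0.0428), -0.05592 (0.311) and 0.044 (0.806). On signals with no log, those of Rab6b and Nefl turned to 151.1 (0.0342) and -53.37 (0.52) signal units.

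Leaving out 1 array gave 1460 to 1862 higher, 1475 to 1867 lower, 256 to 287 with all 4 pairs, 146 to 169 over 2-fold and 1048 to 4316 interactions, the last without replicate 1 of the hypothalamus of 129S6/SvEvTac and the lowest without replicate 2 of the pag of FVB/NJ (1063 without that of C57BL/6J). In the bnst it gave 619 (without C57BL/6J 2) to 1420 (A/J 1), with 737 and 751 without 129S6/SvEvTac 1 and 2 and 769 without FVB/NJ 1. The hippocampus gave 1003 (C57BL/6J 1) to 2563 (A/J 1), with 1089 without 129S6/SvEvTac 1, 1157 without A/J 2 and 1137 without FVB/NJ 1. The hypothalamus gave 443 (129S6/SvEvTac 2) to 2915 (129S6/SvEvTac 1), with 490 without A/J 2, 464 without C57BL/6J 1 and 1369 and 466 without FVB/NJ 1 and 2. The pag gave 558 (C57BL/6J 2) to 1586 (129S6/SvEvTac 1), with 565 without 129S6/SvEvTac 2, 601 without A/J 2 and 640 and 609 without FVB/NJ 1 and 2. The pituitary gland gave 2081 (FVB/NJ 2) to 3201 (FVB/NJ 1), with 2088 without A/J 1. Signals at the floor, 14.8% to 25.2% of an array, have no order, and differences there are smaller than without it.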
